A study of Mus musculus with 2 samples.

Results

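A set of 9 genes that mark microglia were examined in DNase-seq of the mouse left cerebral cortex: Csf1r, Cx3cr1, P2ry12, Tmem119, Trem2, Tyrobp, Aif1, Spi1 and Sall1. They were taken by symbol from the GENCODE M21 annotation of the mm10 assembly, and all 9 of 9 were found among 21938 protein-coding genes. The tissue came from male postnatal B6CASTF1/J mice aged 8 to 10 months, with no treatment named in the labels, and gave 2 libraries labelled biological replicates 1 and 2 that form 1 group. Both libraries carry 1 donor identifier and separate biosample identifiers, so the spread between them may leave out variation between animals. The mice are hybrids by their strain name, and their alleles were not separated here. With 1 group, no test between groups was possible, and every comparison is a description with the SD over 2 libraries.

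Microglia are the resident macrophages of the brain parenchyma and derive from yolk-sac precursors. Their survival depends on CSF1 and IL-34 acting on the receptor encoded by Csf1r. Their gene programme rests on the ETS-family factor PU.1, and the cortical environment, TGF-beta signalling included, maintains the resting state. DNase-seq cuts open chromatin with an enzyme, so a peak marks DNA that was accessible in enough of the nuclei to be called. In whole cortex, a site open in few cells and a site weakly open in many cells give the same value and cannot be told apart, and peaks were not assigned to a cell type.

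For each gene a window was taken of the annotated gene and 50 kb on each side. The authors deposited a smaller, stricter peak list and a larger, broader one for each library, each peak with a signal value here called its strength. They also deposited footprints, short stretches protected from cutting within open DNA. Peaks were sorted by midpoint into those within 1 kb of a start of the gene itself, those within 1 kb of a start of another gene, those inside the gene away from starts, and those elsewhere. Replicate 1 held 40705 stricter peaks, 71210 broader peaks and 166128 footprints, and replicate 2 held 39508, 72217 and 174394. Stricter promoter peaks in both libraries were also counted in cell-type lists, and 54.9% of all protein-coding genes had one. They were found at 8 of 12 cortical neuron genes, 5 of 12 astrocyte genes, 3 of 12 oligodendrocyte genes and 1 of 12 endothelial genes. Only the cortical neuron list, at 66.7%, lay above the share of all genes, so these counts do not identify the cells of the tissue. Examples with their strength in replicates 1 and 2 were Camk2a at 2.71 and 2.25, Sox9 at 1.79 and 1.81, and Olig1 at 1.86 and 1.69. Slc2a1, the only endothelial gene with such a peak, had 2.30 and 2.06.

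Stricter peaks called in both libraries lay away from the starts of the 9 genes. None of the 9 had a stricter promoter peak in both libraries, while 54.9% of all protein-coding genes did. Spi1, P2ry12 and Cx3cr1 had a stricter peak inside the annotated gene in both libraries, 3 of 9 genes, beside 17.7% of all protein-coding genes. The strongest of the shared sites away from starts lay in the annotated span of Cx3cr1, in a coding exon of Spi1, in an intron of Pdgfrb upstream of Csf1r, and about 40 kb upstream of Tyrobp. Sequences of 5 shared sites away from starts are shown first, because they are what was open near the genes while the promoters were not called.

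Each site sequence is 200 bases of mm10 on the plus strand around the peak centre, with capitals where a footprint lay in both libraries. The Spi1 intron site spans chr2:91101501-91101700, and the Spi1 coding exon site spans chr2:91115151-91115350. The P2ry12 intron site spans chr3:59243502-59243701. The Cx3cr1 upstream site spans chr9:120073271-120073470. The Trem2 upstream site spans chr17:48336961-48337160. In all 5 the capitals cover part of the peak, in 1 or a few runs. The protected bases in both libraries numbered 29 and 55 in the Spi1 sites, 34 in the P2ry12 site, 52 in the Cx3cr1 site and 31 in the Trem2 site.
Spi1 intron site: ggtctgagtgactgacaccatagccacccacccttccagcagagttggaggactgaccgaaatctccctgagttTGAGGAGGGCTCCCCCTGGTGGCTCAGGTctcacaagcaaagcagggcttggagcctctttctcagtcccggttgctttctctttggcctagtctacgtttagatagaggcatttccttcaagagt
Spi1 coding exon site: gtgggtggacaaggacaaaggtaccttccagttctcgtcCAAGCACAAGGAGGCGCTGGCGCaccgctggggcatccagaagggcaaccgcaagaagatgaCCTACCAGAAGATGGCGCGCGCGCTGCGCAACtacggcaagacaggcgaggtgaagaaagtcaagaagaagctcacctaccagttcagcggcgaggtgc
P2ry12 intron site: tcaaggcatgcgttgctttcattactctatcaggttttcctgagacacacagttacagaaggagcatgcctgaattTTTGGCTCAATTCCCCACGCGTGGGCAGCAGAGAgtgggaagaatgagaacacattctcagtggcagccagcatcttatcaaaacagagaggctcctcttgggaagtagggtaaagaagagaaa
Cx3cr1 upstream site: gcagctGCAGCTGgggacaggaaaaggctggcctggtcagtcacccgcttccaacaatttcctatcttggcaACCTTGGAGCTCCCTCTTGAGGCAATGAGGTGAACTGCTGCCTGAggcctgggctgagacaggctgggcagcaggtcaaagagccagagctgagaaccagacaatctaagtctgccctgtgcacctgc
Trem2 upstream site: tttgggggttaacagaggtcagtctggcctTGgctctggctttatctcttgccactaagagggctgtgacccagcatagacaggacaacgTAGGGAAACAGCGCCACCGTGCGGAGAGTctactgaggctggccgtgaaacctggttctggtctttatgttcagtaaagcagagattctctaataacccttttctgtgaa

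The promoters of the genes differ in CpG content, and a CpG-rich and a CpG-poor one are shown. Both are the 250 bases upstream of a RefSeq start in GRCm38.p6, written in the direction of transcription, with each CG in capitals. The Sall1 promoter, of the alternative start at position 89043512, spans chr8:89043513-89043762 on the minus strand and holds 25 CG. The Trem2 promoter spans chr17:48346151-48346400 on the plus strand and holds 4 CG. Entries were matched for P2ry12, Sall1, Cx3cr1, Aif1 and Trem2, 5 of 9 genes, with 7 promoters in all since Sall1 has several. Of these 7, only the Sall1 sequence shown here overlapped a stricter peak, and in replicate 1 alone.
Sall1 promoter: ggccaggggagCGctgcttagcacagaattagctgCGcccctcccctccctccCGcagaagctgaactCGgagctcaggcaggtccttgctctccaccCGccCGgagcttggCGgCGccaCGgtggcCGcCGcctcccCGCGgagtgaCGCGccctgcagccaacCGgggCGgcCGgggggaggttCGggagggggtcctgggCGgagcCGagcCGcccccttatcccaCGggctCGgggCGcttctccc
Trem2 promoter: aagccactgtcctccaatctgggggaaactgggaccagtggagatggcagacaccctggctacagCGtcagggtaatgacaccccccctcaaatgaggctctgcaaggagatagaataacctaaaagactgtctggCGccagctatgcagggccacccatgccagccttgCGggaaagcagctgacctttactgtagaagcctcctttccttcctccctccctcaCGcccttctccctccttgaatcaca

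**Figure D1:**
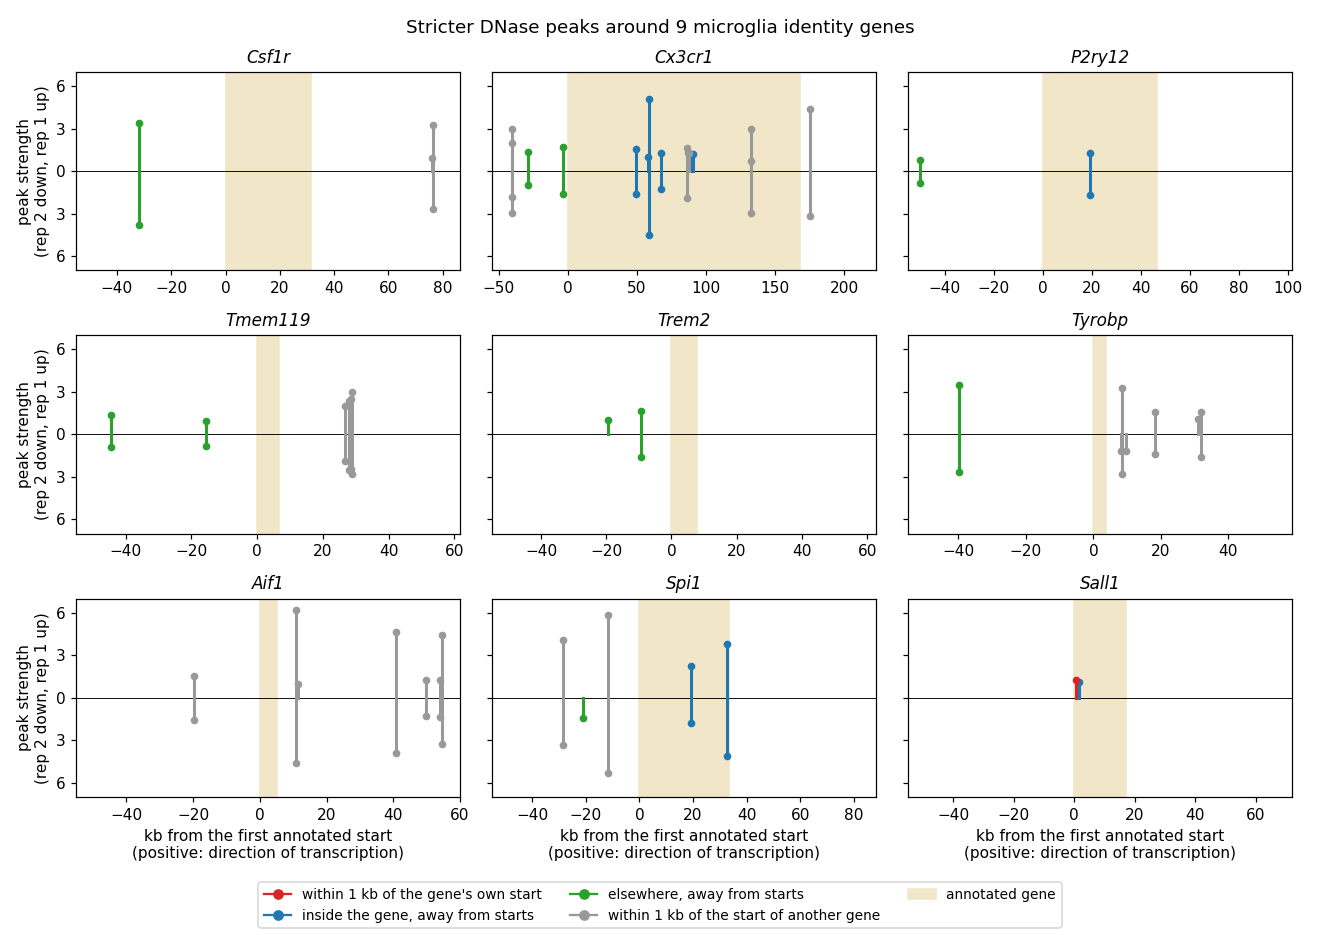
Stricter peaks in the window of each gene. The horizontal axis is distance in kb from the most upstream annotated start, in the direction of transcription; the vertical axis is peak strength, with replicate 1 drawn upward and replicate 2 downward, and the shaded block is the annotated gene. No line stands at the left edge of a block in both libraries, and 21 of the 35 shared sites are gray, at starts of other genes.

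Spi1 encodes PU.1, the ETS-family factor required for myeloid cells, and lies on the plus strand at chr2:91082390-91115756. It had 4 stricter peaks in replicate 1 and 5 in replicate 2, and none at its own 4 annotated starts. The intronic site at chr2:91101501-91101700, 19.2 kb downstream of the first start, had a strength of 2.21 in replicate 1 and 1.76 in replicate 2. The site at chr2:91115141-91115360, in a coding exon 32.9 kb downstream of the first start, had 3.78 and 4.09. Both were open in both libraries, and the exonic site was the stronger in each.

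Among stricter peaks away from all starts, 98.5% in replicate 1 and 98.6% in replicate 2 were weaker than the Spi1 exonic site. For the intronic site these shares were 90.5% and 83.0%. The exonic site held 3 and 4 footprints, and the intronic site held 1 in each library. The strongest peaks of the window belonged to other genes, at the start of Slc39a13, a zinc transporter gene, with 5.81 and 5.32, and at the start of the proteasome gene Psmc3, with 4.10 and 3.33. A site in an intron of Psmc3 at chr2:91061163-91061420 was a stricter peak in replicate 2 alone, at 1.43, and a broader peak in both, at 1.26 and 1.43.

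Sall1 encodes a zinc-finger factor that in mouse brain is kept on in microglia and not in other macrophages. It lies on the minus strand at chr8:89027235-89044162, with no other protein-coding gene in its window. It was the only one of the 9 genes with a broader peak, FDR intervals and footprints within 1 kb of a start in both libraries, though not with a stricter peak in both. The peak at chr8:89043441-89043673 lay 0.600 kb downstream of the GENCODE start of Sall1 and covers the alternative RefSeq start at position 89043512. It was a stricter peak in replicate 1, with 1.23, and only a broader peak in replicate 2, with 1.22. Its strength was thus nearly the same in both libraries, while the stricter list held it in replicate 1 alone.

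A second Sall1 site at chr8:89042608-89042795, in an intron, showed the same split, with a stricter peak of 1.13 in replicate 1 and a broader peak of 1.04 in replicate 2. It lies over 1 kb from the GENCODE start but within 1 kb of another RefSeq start, at position 89042862. Over the whole window the libraries differed more. Replicate 1 held 6 broader peaks, 13 footprints and 768 intervals of the authors' false discovery rate (FDR) table, which lists intervals under 0.05. Replicate 2 held 2 broader peaks, 4 footprints and 174 such intervals. All Sall1 counts were lower in replicate 2, and the cause was not tested.

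The surface receptors are the genes by which microglia are most often identified. Cx3cr1 encodes the receptor of the neuronal chemokine fractalkine and lies on the minus strand at chr9:119901616-120069879. In GENCODE 1 transcript extends its span to 168 kb, across 5 other protein-coding genes, whereas the RefSeq gene covers 19.6 kb at chr9:120048683-120068296. It had 16 stricter peaks in replicate 1 and 10 in replicate 2, the most of the 9 genes, in the longest window. Within 1 kb of its starts the FDR table listed intervals in replicate 1 alone, the lowest at 0.0166.

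The strongest Cx3cr1 site was at chr9:120011121-120011360, with 5.09 in replicate 1 and 4.53 in replicate 2, and exceeded 99.5% and 99.0% of stricter peaks away from starts. It held 7 and 4 footprints and 28 CG in 200 bases, and overlaps an exon of the noncoding gene Gm49427. It lies 37.4 kb past the end of the RefSeq gene, as do the other stricter peaks counted inside Cx3cr1, by 28.2 kb or more. The site at chr9:120020381-120020540, also in an intron of Xirp1, had 1.56 and 1.61, and the one at chr9:120002099-120002261 had 1.30 and 1.30. With RefSeq spans in place of GENCODE, Cx3cr1 had no stricter peak inside the gene, and the count of genes with one was 2 of 9.

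Nearest to the Cx3cr1 start was the upstream site at chr9:120073261-120073480, 3.49 kb before the first GENCODE start and 5.07 kb before the RefSeq start. Its strength was 1.72 in replicate 1 and 1.61 in replicate 2, with 2 and 3 footprints. A farther site at chr9:120098781-120098966, 29.0 kb upstream, had 1.35 and 0.972. Both were intergenic and found in both libraries. Other shared peaks of the window lay at starts of Wdr48, with 4.37 and 3.14, and of Gorasp1 and Ttc21a, with 2.96 and 2.99. The rest lay at starts of Slc25a38, with 2.99 and 2.93 at the strongest, and of Csrnp1 and 1700019L13Rik, with 1.62 and 1.87.

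P2ry12 encodes the ADP receptor that guides microglial processes to sites of injury, and lies on the minus strand at chr3:59216272-59262871 where it overlaps Med12l. It had 2 stricter peaks in each library. The intronic site at chr3:59243502-59243700, 19.3 kb downstream of the first start, had 1.28 in replicate 1 and 1.69 in replicate 2, and the gene held 2 footprints in each library. Because this DNA is an intron of both genes, the peak cannot be given to either. The other peak lay 49.95 kb upstream in an intron of Med12l, at chr3:59312681-59312957, with 0.758 and 0.861, the weakest shared site of all. No interval of the FDR table lay within 1 kb of a P2ry12 start in either library.

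Tmem119 encodes a transmembrane protein that in mouse brain separates microglia from other macrophages, and lies at chr5:113793729-113800516 on the minus strand. It had 6 stricter peaks in each library, all outside the gene. It had a pair of shared sites away from starts. The intergenic site at chr5:113815881-113816027, 15.4 kb upstream, had 0.929 and 0.833, and the site in an intron of Coro1c at chr5:113844865-113845001, 44.4 kb upstream, had 1.38 and 0.907. The remaining 4 lay at the paired starts of Sart3 and Iscu, the strongest with 2.99 and 2.81.

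Trem2 encodes a lipid-sensing receptor and lies at chr17:48346401-48354147 on the plus strand. Its window held 2 stricter peaks in replicate 1 and 1 in replicate 2, none inside the gene. The shared site was intergenic at chr17:48336961-48337160, 9.34 kb upstream, with 1.66 in replicate 1 and 1.56 in replicate 2, and held 3 footprints in each. A site at chr17:48326721-48326931 was a stricter peak in replicate 1 alone, with 1.05, and a broader peak of 0.528 in replicate 2. Downstream, at chr17:48373072-48373350, both libraries had a peak of the broader list only, with 0.540 and 0.454.

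Tyrobp encodes DAP12, the adaptor through which TREM2 signals, and lies at chr7:30413760-30417585 on the plus strand. Its window held 5 stricter peaks in replicate 1 and 6 in replicate 2, none inside the gene. The single site away from starts was intergenic at chr7:30373561-30373980, 40.0 kb upstream, and was strong, with 3.46 and 2.64 and with 97.9% and 93.9% of like peaks weaker. The other sites lay at starts of Nfkbid, an NF-kappaB regulator gene, with 3.24 and 2.78 at the strongest, of Gm30646, with 1.57 and 1.42, and of Aplp1, with 1.60 and 1.60.

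Aif1 encodes IBA1, a calcium- and actin-binding protein used to stain microglia, and lies at chr17:35170991-35176068 on the minus strand in a gene-dense stretch with 12 other protein-coding genes in the window. It had 8 stricter peaks in replicate 1 and 7 in replicate 2, every one of them within 1 kb of a start of another gene. They were strongest at Prrc2a, with 6.23 and 4.60, at Bag6, with 4.63 and 3.88, and at Csnk2b and Gpank1, with 4.41 and 3.29. At a start of Aif1 itself, replicate 1 had a broader peak at chr17:35172989-35173087 with 0.815, 1 footprint and a lowest FDR of 0.0290. Replicate 2 had none of these there.

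Csf1r encodes the receptor of CSF1 and IL-34 and lies on the plus strand of chromosome 18, at chr18:61100598-61132149. It had 3 stricter peaks in replicate 1 and 2 in replicate 2, none of them in the gene. No broader peak or footprint lay in the gene either, and no FDR interval lay within 1 kb of its 6 starts. The first neighbour, at chr18:61068481-61068700, lay 32.0 kb upstream in an intron of Pdgfrb, a receptor gene of pericytes. Its strength was 3.38 in replicate 1 and 3.81 in replicate 2, above 97.8% and 98.1% of stricter peaks away from starts. The second lay at the start of Hmgxb3, with 3.26 and 2.70, and a weaker peak of 0.910 beside it was found in replicate 1 alone.

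**Figure D2:**
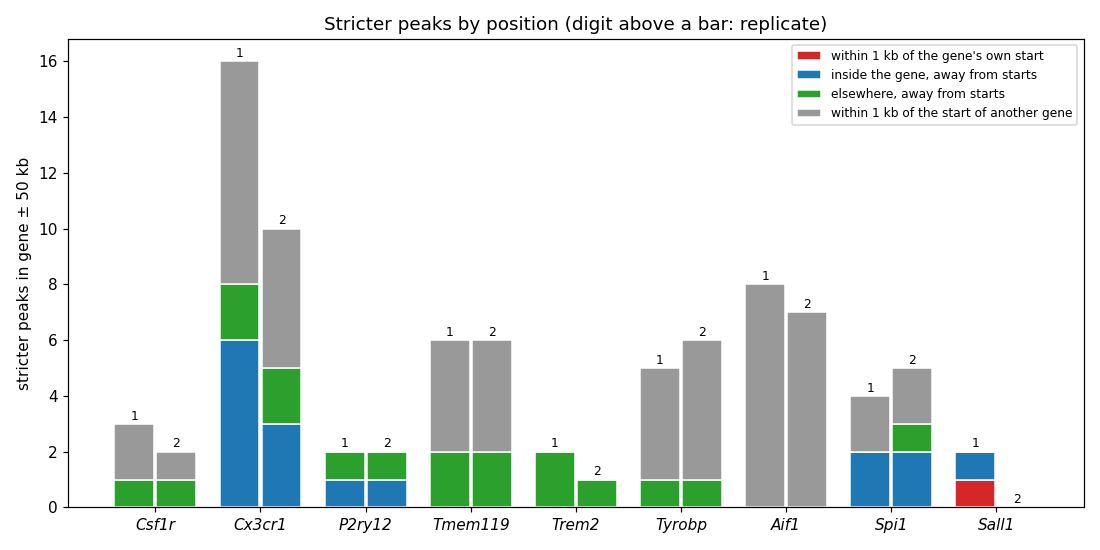
Number of stricter peaks in each window by position, with 1 bar for replicate 1 and 1 for replicate 2 of each gene; the vertical axis is a count. Cx3cr1 has the tallest bars, 16 and 10, Aif1 has peaks at starts of other genes only, and Sall1 has 2 peaks in replicate 1 and none in replicate 2.

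Counted over the 9 windows, replicate 1 held 48 stricter peaks and replicate 2 held 39. Merged, they made 50 sites, of which 29 lay at starts of other genes, 10 inside the gene, 10 elsewhere and 1 at the gene's own start. Both libraries shared 35 sites, 14 of them away from starts, and these 14 belonged to 7 of the 9 genes. Aif1 and Sall1 had none. The share of all protein-coding genes with such a site in a like window was not counted, so 7 of 9 is not a trait of these genes. The starts of other genes were those of neighbours such as Slc39a13 and Prrc2a.

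Shared sites away from starts had mean strengths from 0.810 to 4.81, with a median of 1.60. Shared sites at starts of other genes ranged from 1.27 to 5.57, with a median of 2.90. Of the 14 sites away from starts, 11, or 78.6%, were at or above the middle of all stricter peaks away from starts in both libraries, as were 55.5% of the 13346 shared sites of that kind over the genome. Of the 15 sites called in 1 library, 12 were in replicate 1 and 3 in replicate 2, and 11 of the 15 overlapped a broader peak in both libraries. The same counts over the genome were not taken, so neither is a trait of these windows.

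**Figure D3:**
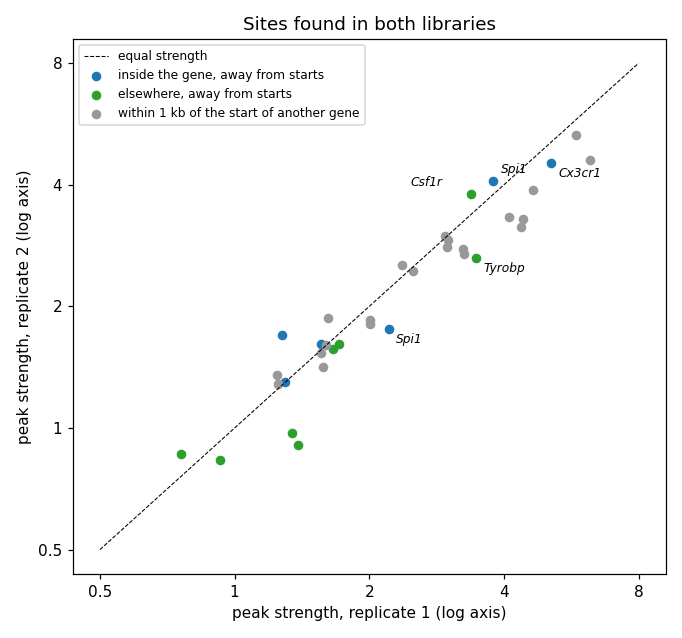
Strength of the 35 shared sites in replicate 1 (horizontal) and replicate 2 (vertical), both on log axes, colored by position, with the line of equal strength dashed. The points lie near the line, and the labeled sites away from starts are those above a strength of 2 in replicate 1, near Cx3cr1, Spi1, Csf1r and Tyrobp.

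Peak density in the windows was close to that of other genes. The median over the 9 genes was 0.300 stricter peaks per 10 kb in replicate 1 and 0.373 in replicate 2, a mean of 0.336 ± 0.0515 (SD, n = 2). Over all protein-coding genes the median was 0.287 and 0.278, a mean of 0.282 ± 0.00601 (SD, n = 2). The median of the 9 genes was higher in both libraries, by slightly more than its SD between libraries. The SDs given here are between libraries and do not measure the spread between genes. Single genes ranged from 0.136 for P2ry12 to 0.761 for Aif1 in replicate 1. In replicate 2 they ranged from 0.0 for Sall1 to 0.666 for Aif1. Footprints gave medians of 1.35 ± 0.212 per 10 kb for the 9 genes and 1.22 ± 0.0386 for all protein-coding genes (SD, n = 2), a difference within the larger SD between libraries.

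The share of window peaks within 1 kb of any start was 60.4% in replicate 1 and 61.5% in replicate 2, a mean of 61.0 ± 0.793% (SD, n = 2). Over all stricter peaks it was 50.4% and 53.9%. With flanks of 50 kb the windows thus held more start peaks than the genome-wide share in both libraries, nearly all at starts of other genes. With flanks of 10 kb the direction turned, to a mean of 46.1 ± 0.857% (SD, n = 2) against 52.2 ± 2.48% over all stricter peaks (SD, n = 2). Of replicate 1's window peaks 75.0% overlapped a stricter peak of replicate 2, and of replicate 2's 92.3% overlapped one of replicate 1, beside 76.5% and 78.4% of all stricter peaks. The direction with replicate 1 as the start was therefore no higher than the genome-wide share.

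The broader list and the FDR table changed the count at the genes' own starts little. The broader list does not contain every stricter peak. In replicate 1 a stricter peak of 0.976 near a start of Prrc2a overlapped no broader peak. With the broader list, Sall1 alone had a promoter peak in both libraries, 1 of 9 genes, beside 60.8% of all protein-coding genes. The FDR table gave the same 1 of 9, beside 61.6%; the lowest FDR at the Sall1 start was 4.29e-07 in replicate 1 and 0.00208 in replicate 2. For 6 of the 9 genes, Csf1r, P2ry12, Tmem119, Trem2, Tyrobp and Spi1, no FDR interval lay within 1 kb of a start in either library, beside 34.5% of all protein-coding genes. Among protein-coding genes with 0 to 7 CG in the window used for CpG content, described next, that share was 91.9%, and with 8 to 15 CG it was 64.4%. For 7 genes no footprint lay there in either library, and the exceptions were Sall1, with 5 and 3, and Aif1, with 1 and 0. Of all protein-coding genes 37.1% had no footprint there in either library. These are statements about what was called at this depth, which the files do not give in reads.

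Over all protein-coding genes, promoter peaks were more frequent at starts with more CpG, so the members' CpG content is given beside their counts. Each gene was given the number of CG in the richest 500-base window around its protein-coding transcript starts. Csf1r had 7, Cx3cr1 12, P2ry12 9, Tmem119 14, Trem2 6, Tyrobp 5, Aif1 8, Spi1 15 and Sall1 32. The median was 9, and that of all protein-coding genes was 30, so 8 of the 9 lay below the median gene.

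Promoter peaks were rare among all genes at such CpG counts. Of protein-coding genes with 0 to 7 CG, 2.78% had a stricter promoter peak in both libraries, and of those with 8 to 15 CG, 18.8% did. The 8 genes apart from Sall1 fall in these bands, so their lack of a promoter peak is near the background of genes of like CpG content. Of genes with 32 to 39 CG, 83.2% had one, and Sall1, in that band, did not. How far CpG content bears on the members' count was not tested.

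**Figure D4:**
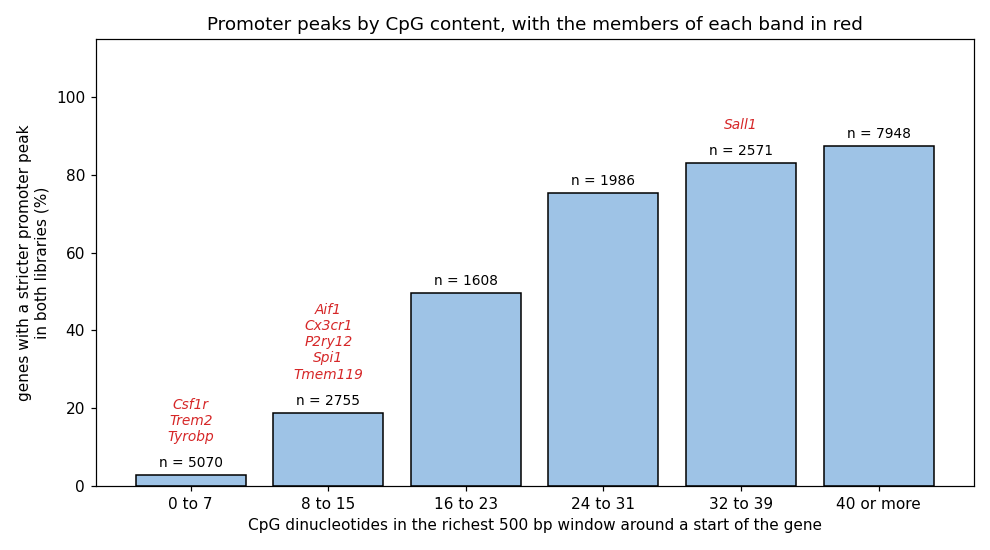
Percent of protein-coding genes with a stricter promoter peak in both libraries (vertical) by number of CG in the richest 500-base window around a start (horizontal), with the number of genes above each bar and the 9 members named in red over their band. The share is 2.78% in the lowest band, which holds Csf1r, Trem2 and Tyrobp, and 83.2% in the band of Sall1.

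Other genes of the same cells and of the tissue around them were counted in lists named for their known roles. Of 19 further homeostatic microglia genes, 4, or 21.1%, had a stricter promoter peak in both libraries, beside 54.9% of all protein-coding genes. Olfml3, a secreted-protein gene, had strengths of 2.90 in replicate 1 and 3.22 in replicate 2. Cst3, the cystatin C gene, had 2.89 and 1.98, and the lysosomal gene Cd68 had 1.04 and 0.880. Cst3 is also active in other brain cells, and these peaks were not assigned to a cell type. Slc2a5, the fructose transporter gene, had a peak inside the gene, with 1.01 and 1.55.

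Of 13 transcription factor genes of microglia, 8, or 61.5%, had a shared promoter peak, near the 54.9% of all protein-coding genes. The median CpG count of that list was 56, beside 30 over all protein-coding genes. Elf1 had 5.01 and 5.15, with a start of Wbp4 also within 1 kb, Mef2a had 4.80 and 5.33, and Cebpa had 3.22 and 2.39. Runx1, a factor of blood cell development, lacked a shared promoter peak and had a peak inside the gene with 1.43 and 1.69. Mef2a is also active in neurons, and the cells behind any of these peaks were not identified.

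Among partners of the CSF1 receptor, TREM2 and TGF-beta pathways, 15 of 16 listed symbols were found. Of these, 6, or 40.0%, had a shared promoter peak, beside 54.9% of all protein-coding genes. The TGF-beta receptor gene Tgfbr1 had 3.08 and 2.36, and Csf2ra, a subunit of the GM-CSF receptor, had 2.81 and 1.84. Cx3cl1, the ligand of the Cx3cr1 receptor and a neuronal gene, had 2.49 and 2.65, and Apoe, a lipid carrier bound by TREM2, had 1.57 and 1.19. Another 4 had no promoter peak in both but a peak inside the gene, as did 1115 of 21938 protein-coding genes. These were Plcg2, with 1.31 and 1.61, and the kinase gene Syk, with 1.14 and 1.46, both downstream of TREM2, and the receptor genes Csf2rb, with 1.15 and 1.06, and Tgfbr2, with 1.11 and 0.907.

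Of 12 genes found from a list raised in disease-associated microglia, 6 had a promoter peak in both libraries, beside 54.9% of all protein-coding genes. Ctsd, a lysosomal protease gene, led with 3.85 and 3.25. Apoe and Csf1 were also counted among the partners above, and the cells behind these peaks were not identified. Border and blood-derived macrophage genes had 2 of 12, Vcan with 1.21 and 1.02 and Fn1 with 0.578 and 0.491. Mrc1, which encodes the mannose receptor of border macrophages, had a peak inside the gene with 2.63 and 2.00, and Cd163, a scavenger receptor gene, one with 1.19 and 0.991. Lymphocyte and neutrophil genes had 2 of 12, Lck with 1.54 and 1.49 and Mpo with 1.05 and 0.926. The 9 identity genes, with 0 of 9, had the lowest share beside these 10 lists, in which the lowest was 1 of 12, for endothelial genes. The median CpG count was 14.5 for the endothelial, 5.5 for the border macrophage and 7 for the lymphocyte and neutrophil list. It was 9 for the identity genes, and how far CpG content bears on these shares was not tested.

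**Figure D5:**
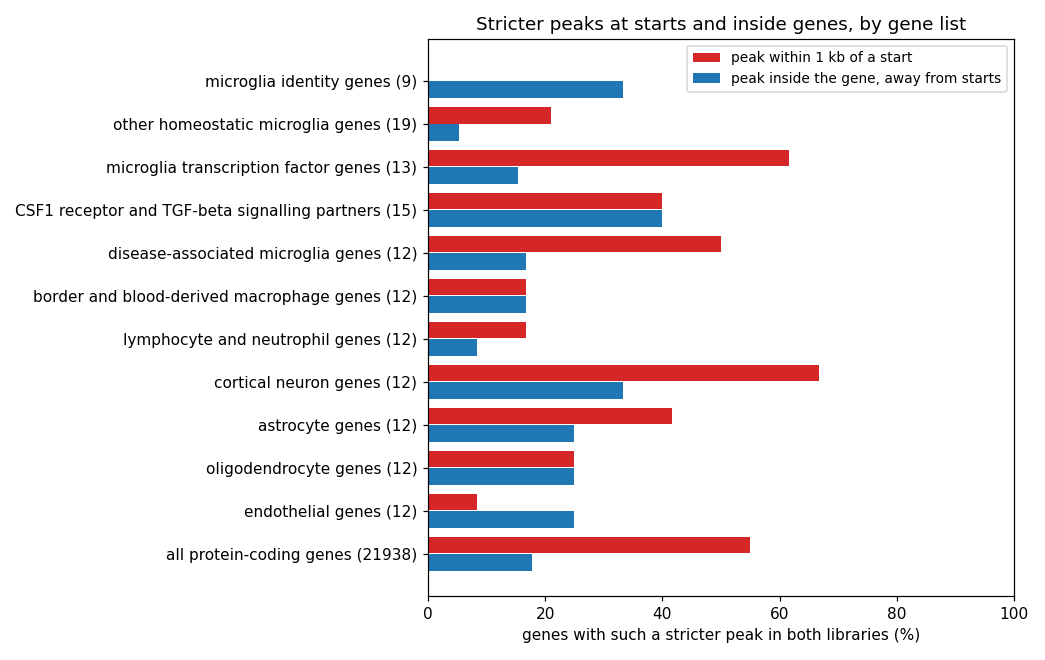
Percent of genes with a stricter peak in both libraries within 1 kb of a start (red) or inside the gene away from starts (blue), for the 9 microglia identity genes, the 10 other lists and all protein-coding genes, with the number of genes in parentheses. The identity genes have no red bar and a blue bar of 33.3%, and all protein-coding genes have 54.9% and 17.7%.

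Short consensus strings were searched on both strands in 200 bases around each of the 14 shared sites away from starts, and in 13346 shared sites of the same kind over the genome. The PU.1 string GAGGAAGT was in none of the 14 and in 1.37% of the 13346. The ETS string CCGGAAGT, which shares its last letters with the PU.1 string, was in none and in 0.472%. No member site held the PU.1-IRF string GGAANNGAA, the IRF string GAAANNGAA, the C/EBP string TTGCNNAA, the RUNX string TGTGGT or the MEF2 string, which were in 5.38%, 5.29%, 8.65%, 14.1% and 1.54% of all such sites. A string not found says only that its letters are not in that window.

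The AP-1 string TGANTCA was in 1 of the 14 sites, the distal P2ry12 site, and in 7.96% of all such sites, and the SP/KLF string GGGCGG was in the same site and in 11.5%. The SMAD string CAGACA was in 3 sites and in 18.8%, and the E-box CANNTG, which reads the same on both strands, was in 5 sites, or 35.7%, and in 72.2%. A CTCF consensus, searched after the data had been seen, was in 5 sites, or 35.7%, and in 29.4% of all such sites. The 5 were the Pdgfrb intron site near Csf1r, the Cx3cr1 site shared with Xirp1, both distal Tmem119 sites and the Spi1 exonic site. In each of the 5 the match overlapped a footprint in both libraries. How often CTCF matches in the other shared sites overlap footprints was not counted, so this is not a trait of these sites.

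In the 7 RefSeq promoters of 300 bases, 250 before and 50 after the start, the SP/KLF string was in 2, both of Sall1, and in 46.2% of 21263 promoters of protein-coding genes. The PU.1 string was in none of the 7 and in 3.13% of all. The Aif1 promoter held the IRF and MEF2 strings, the Cx3cr1 promoter the RUNX string, and the P2ry12 and Trem2 promoters the C/EBP string, which are in 8.15%, 2.74%, 14.97% and 10.2% of all promoters. The Aif1, Cx3cr1, P2ry12 and Trem2 promoters had no stricter peak in either library.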

How the data were processed

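DNase-seq was measured in 2 libraries of 1 group. The authors called peaks on each library alone and deposited 2 peak lists per library, per the notes deposited with the files; the sources used here do not name a peak caller or an aligner. Column 7 of each deposited list, unit signal, was used as strength without rescaling, since its normalization is not given. Deposited FDR values, a kind of q-value, are listed for intervals under 0.05 only; the authors further gave footprint intervals whose constant value column was not used. Read depth is not given, so no counting interval was computed.

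Genes and starts came from GENCODE M21 on mm10, coordinates counted from 1. A promoter peak was a stricter peak overlapping 1000 bp on either side of any start of the gene, in both libraries. Sites are stricter peaks of the libraries merged where they overlap. Distances are from the most upstream annotated start. Peaks away from starts lie over 1000 bp from every annotated start of any gene. Means and SDs are over 2 libraries, with no test and no p-value. All 9 genes are named with the promoter peaks, the peaks inside the gene and the strongest peaks of their windows; from other lists, at most the 4 strongest genes with a promoter peak and 4 with a peak inside the gene, some of which are not reported here. Beyond that rule, named after their values were seen, are the remaining shared sites, the broader-list sites and the sites called in 1 library. The members, lists and strings were chosen with earlier results of these data known; the CTCF consensus, the CpG bands and the RefSeq spans were chosen after the data were seen. Scripts were tested on simulated data and run with Python 3.11.15, pandas 2.3.3, numpy 2.4.6, matplotlib 3.10.9 and samtools 1.23.1.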

Additional observations from a re-analysis of the deposited data

How the results depend on the processing

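Of 38 alternatives to the 6 summary values, 29 left the value within the spread between replicates (counts: within 1.5 times) and 9 moved it. For values that are means over the 2 libraries, leaving either library out always stays within that spread. Those alternatives are among the 29 and could not have moved the value. The count of genes with a promoter peak, 0 of 9, became 1 with the broader list, and ranged from 0 to 1 when either library was left out, Sall1 being the gene gained both times. The count with a peak inside the gene, 3, ranged from 3 to 4 when either library was left out and was 4 with the broader list, 2 with starts widened to 2000 bp and 2 with RefSeq spans. Median peak density moved to 0.489 with the broader list, beside 0.457 over all genes, and ranged from 0.300 to 0.373 over single libraries. The share of window peaks near a start was 51.8% with the broader list, 54.2% within 500 bp, 74.4% within 2000 bp and 46.1% with flanks of 10 kb, the last below the genome-wide 52.2%, and ranged from 60.4 to 61.5% over single libraries; the share found in both libraries ranged from 75.0 to 92.3%. Median footprint density was 1.08 with flanks of 10 kb and 0.972 with footprints in stricter peaks only, and ranged from 1.20 to 1.4996. The cause was not tested. No paired analysis was possible because the libraries form 1 group. With 2 libraries that may share an animal, with read depth not given and with whole tissue, a site that was not called may be open in few cells.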
